A study of Arabidopsis thaliana with 2 samples.

Results

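Aldehyde dehydrogenases (ALDH) are NAD- or NADP-dependent enzymes that oxidise aldehydes to carboxylic acids. In plants they clear reactive aldehydes formed under stress and complete steps of amino acid, polyamine, sugar and phenylpropanoid metabolism. In stems, the last of these is the pathway that also supplies lignin of secondary walls.

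The ALDH genes were taken from an ATH1 GeneChip experiment on Arabidopsis thaliana stems as the probe sets (groups of short oligonucleotides that read 1 transcript) that the platform annotation assigns to 1 gene only, with a symbol beginning ALDH. This rule gave 8 probe sets of 8 different genes out of 22746 non-control probe sets, 13513 of which name 1 gene. The members were ALDH2C4 (AT3G24503), ALDH3F1 (AT4G36250), ALDH6B2 (AT2G14170), ALDH7B4 (AT1G54100), ALDH10A8 (AT1G74920), ALDH10A9 (AT3G48170), ALDH11A3 (AT2G24270) and ALDH22A1 (AT3G66658). The gene table used here (TAIR10.1) holds 14 genes with an ALDH symbol. The other 6 (ALDH2B4, ALDH2B7, ALDH3H1, ALDH3I1, ALDH5F1 and ALDH12A1) were not analysed here. The rule used no measured value.

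There were 2 samples with 1 array each. One came from plants of genotype 35S::AtC3H14, which overexpress the CCCH zinc finger gene AtC3H14 from the 35S promoter, a viral promoter active in most plant tissues, and the other from wild-type plants. Both were Columbia (Col-0) plants of 30 days grown on soil at 23 °C in days of 16 h light and 8 h dark, and stem tissue was taken from the base to the 3rd internode. The sources used here do not say how many plants or transgenic lines were behind each sample, and without replicate arrays there was no test, standard error or p-value. Genotype cannot be told apart from an unlabelled difference in developmental stage or handling, nor, in whole stem, can fewer cells of a type from less RNA per cell.

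Values are MAS5 signals on a linear scale, each array having a 2% trimmed mean of 500.04, so ratios are relative to the average of the array. Signals under 104.0, the 40th percentile over the non-control probe sets of both arrays, were treated as low (the floor), and a ratio was given where both arrays reached this value. Ratios are 35S::AtC3H14 over wild type, and a size of 2-fold was used to describe differences. The median signal was 194 on the 35S::AtC3H14 array and 180.2 on the wild-type array. AtC3H14 itself (AT1G66810) had a signal of 8655 in 35S::AtC3H14 and 244 in wild type, the direction of the label. Of the 13 listed stem secondary wall markers, IRX10, IRX15, IRX15-L and HCT had a probe set assigned to no other gene. Their summed signal was 15428 in 35S::AtC3H14 and 18765 in wild type, with log2 ratios of -0.02, -0.45, -0.07 and -0.47. HCT is also an entry of the phenylpropanoid list below. The sum of the 3 measured green tissue markers (LHCB4.1, RCA and PRK) was 36622 in 35S::AtC3H14 and 38276 in wild type, with log2 ratios of -0.32, 0.04 and 0.09. The 2 flower and pollen loci with a probe set (AT5G07230 and AT5G45880) lay below the floor on both arrays, and no seed or root marker was analysed here. The part of cell composition in the ALDH ratios was not tested.

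All 8 ALDH members reached the floor on both arrays, so each had a ratio and none a bound. ALDH3F1 was the 1 member at least 2-fold higher in 35S::AtC3H14 and ALDH7B4 the 1 member at least 2-fold lower. The other 6 lay under 2-fold, ALDH22A1 nearest to it. Of the 12826 probe sets that reached the floor on both arrays, 10.1% were past 2-fold, with 4.51% higher and 5.61% lower. At 1 of 8 in each direction, each count of members is the smallest above 0 that a list of 8 can have.

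**Figure D1:**
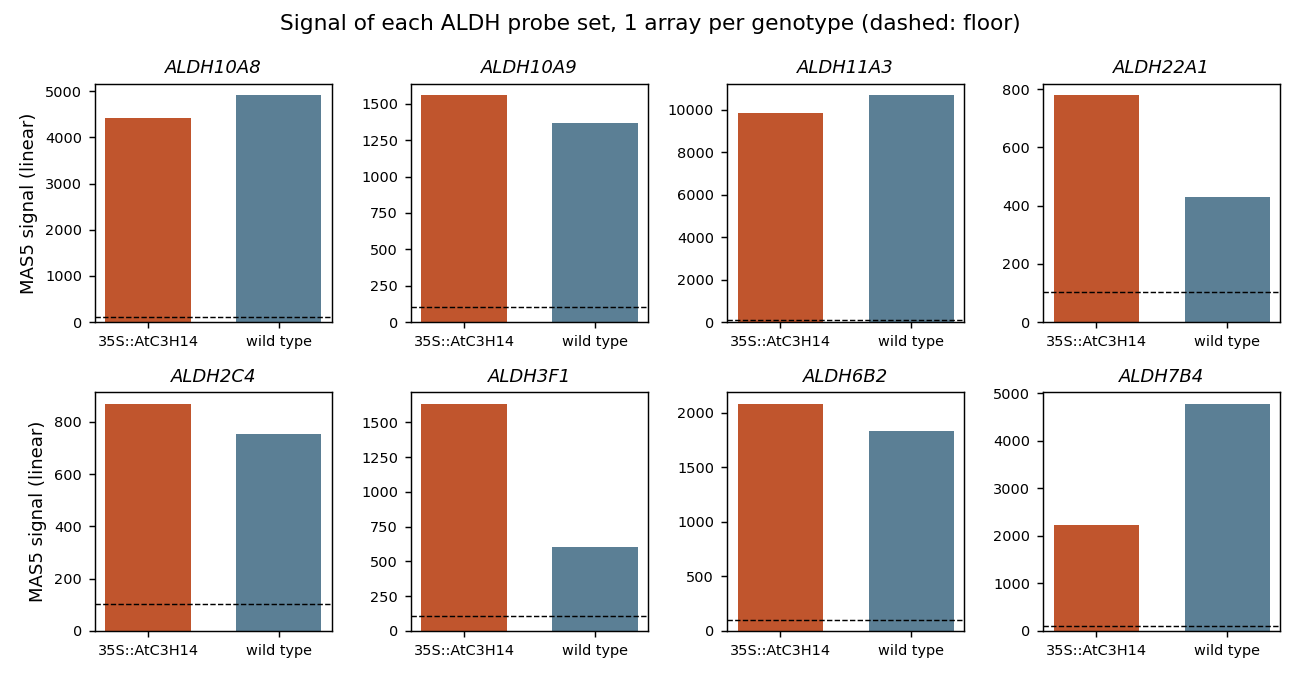
Each panel gives 1 ALDH probe set, with its MAS5 signal (linear, from 0) on the 35S::AtC3H14 array (left bar) and the wild-type array (right bar), 1 array each, and a dashed line at the floor of 104.0. Panels have their own scale. ALDH3F1 and ALDH22A1 have the left bar clearly taller, ALDH7B4 the right bar, and all bars stand above the floor.

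ALDH3F1 encodes a cytosolic member of the class whose relatives oxidise fatty and other medium- to long-chain aldehydes. Its signal was 1633 in 35S::AtC3H14 and 601 in wild type, 2.72-fold higher, a log2 ratio of 1.44. The probe set was well clear of the floor on both arrays, at 15.7 times its value in 35S::AtC3H14 and 5.77 times in wild type. Of all measured probe sets, 205 (1.60%) had a ratio as high. When the arrays were instead scaled to the spiked hybridization controls, the log2 ratio was 0.92, under 2-fold.

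ALDH7B4 encodes the plant antiquitin, whose animal relative oxidises an aldehyde intermediate of lysine breakdown, and its transcript is known to accumulate in Arabidopsis under dehydration, salt and abscisic acid. Its signal was 2235 in 35S::AtC3H14 and 4774 in wild type, 2.14-fold lower, a log2 ratio of -1.10. Of all measured probe sets, 577 (4.50%) had a ratio as low. The log2 ratio was -1.62 with the hybridization-control scaling. The log2 ratio of ALDH3F1 exceeded that of ALDH7B4 by 2.54, and this difference within the arrays does not depend on a constant scaling of either array.

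ALDH22A1 belongs to a plant aldehyde dehydrogenase family found in the secretory pathway. Its signal was 780.4 in 35S::AtC3H14 and 429 in wild type, a ratio of 1.82 and a log2 ratio of 0.86, under 2-fold. As high a ratio was found for 6.54% of all measured probe sets. Its signal stood at 7.50 times the floor in 35S::AtC3H14 and 4.12 times in wild type. With a size of 1.5-fold in place of 2-fold, ALDH22A1 joined ALDH3F1 among the higher members, 2 of 8, against 14.5% of all probe sets higher by that size. ALDH7B4 was then still the 1 lower member, against 14.1% of all probe sets. No member passed 3-fold, which 1.26% of all probe sets passed upward and 1.42% downward.

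The remaining 5 members differed little between the arrays, with log2 ratios from -0.16 to 0.21. Log2 ratios within 0.3 of 0 were found for these 5 of 8 members and for 43.2% of all measured probe sets. ALDH2C4 (also REF1), which oxidises coniferaldehyde and sinapaldehyde to ferulic and sinapic acid, had a signal of 869 in 35S::AtC3H14 and 753 in wild type, a ratio of 1.15. ALDH6B2, named as a methylmalonate-semialdehyde dehydrogenase of mitochondrial valine breakdown, had 2081 in 35S::AtC3H14 and 1829.9 in wild type, a ratio of 1.14. For both, the signal was slightly higher on the 35S::AtC3H14 array as deposited, with log2 ratios of 0.21 and 0.19, and slightly lower with the hybridization-control scaling, with -0.32 and -0.34.

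ALDH10A8 and ALDH10A9 are close relatives that oxidise aminoaldehydes from polyamine breakdown and betaine aldehyde. They are known to reside in different organelles, ALDH10A8 in plastids and ALDH10A9 in peroxisomes. ALDH10A8 had a signal of 4419 in 35S::AtC3H14 and 4919.9 in wild type, a ratio of 0.898. ALDH10A9 had 1561 in 35S::AtC3H14 and 1366 in wild type, a ratio of 1.14 (log2 -0.33 under the hybridization-control scaling). The log2 ratios, -0.16 and 0.19, were 0.35 apart. Repeat probe sets for a single gene within these arrays had a pooled SD of 0.35 around the mean of their gene, over 121 probe sets of 59 genes. Differences between repeat probe sets spread wider than that SD, so the gap of the pair is within their spread. The SD leaves out all variation between plants and hybridizations.

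ALDH11A3 encodes the non-phosphorylating glyceraldehyde 3-phosphate dehydrogenase of the cytosol, which yields NADPH and bypasses a step of glycolysis. Its signal was 9843 in 35S::AtC3H14 and 10694 in wild type, a ratio of 0.920 and a log2 ratio of -0.12. The ratio changed sign with quantile normalization, to a log2 ratio of 0.03, so no direction can be given for it.

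Over the 8 members the median log2 ratio was 0.19, and the values ran from -1.10 to 1.44, with an SD of 0.75. Over all 12826 measured probe sets the median was 0.04 and the SD 0.64. As deposited, 5 members had a log2 ratio above 0 and 3 below, beside 6839 above and 5987 below among the 12826 probe sets. With the hybridization-control scaling, 2 members (ALDH3F1 and ALDH22A1) kept a ratio above 0, and the median of the members was -0.33 while that of all probe sets shifted by -0.50 to -0.46. Relative to the median of all probe sets, ALDH3F1 stood at 1.40 as deposited and 1.38 with that scaling, and ALDH7B4 at -1.13 and -1.16. That closeness was fixed in advance, because the scaling multiplies each array by a constant. Only probe sets crossing the floor could change these positions. Among the 5881 measured probe sets whose mean log2 signal was at least that of ALDH22A1, the lowest among the members, 3.86% were past 2-fold upward and 6.78% downward.

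**Figure D2:**
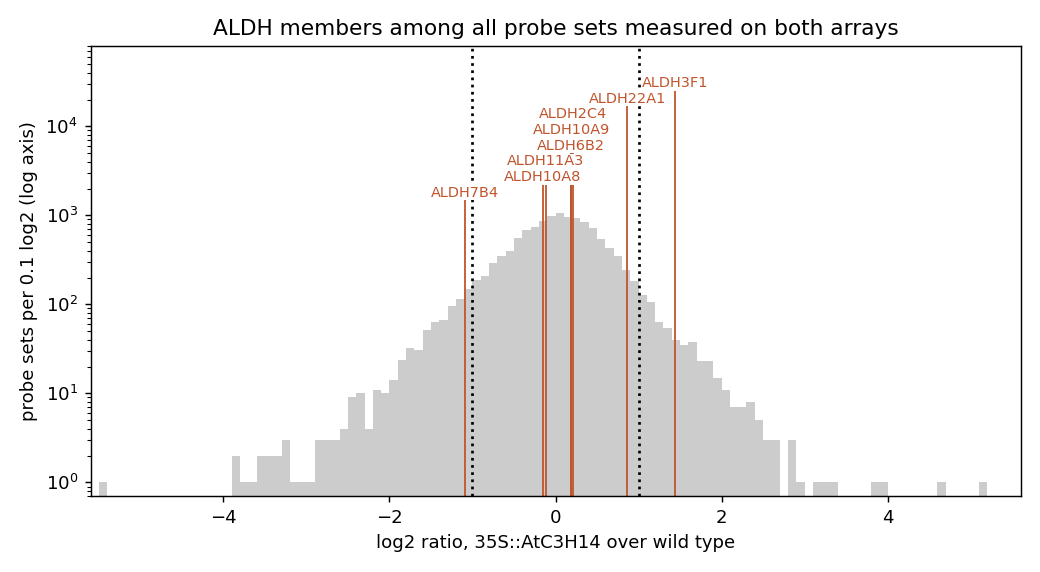
Grey bars count the probe sets measured on both arrays per 0.1 of log2 ratio, 35S::AtC3H14 over wild type (horizontal axis), on a log vertical axis. Vertical lines mark the 8 ALDH members and dotted lines 2-fold. ALDH3F1 (1.44) and ALDH7B4 (-1.10) lie outside the dotted lines, ALDH22A1 (0.86) just inside, and the other 5 near the centre. The height of a member's line has no meaning.

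Enzymes that neighbour the ALDH steps were read from 8 lists with 84 entries. A probe set assigned to no other gene was found for 21 of these, and 20 reached the floor on both arrays. Of the 20, none was at least 2-fold higher, 3 were at least 2-fold lower and 17 lay under 2-fold, against 4.51% higher and 5.61% lower over all probe sets. Scaled to the hybridization controls, 7 of the 20 were at least 2-fold lower, as were 2143 of 12778 probe sets over the array. The 3 lower ones were LKR, DELTA-OAT and AT5G38710. They came from the branched-chain and lysine list and the proline list, which held 10 and 2 of the 20 measured genes. Of the listed loci with a probe set, 5 carry no name in the gene table and are given by locus code, without a role.

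In the list of branched-chain amino acid and lysine breakdown, which holds the neighbours of ALDH6B2 and ALDH7B4, 1 of 10 measured genes was at least 2-fold lower and none higher. Over all measured probe sets, 5.61% were lower and 4.51% higher by that size. The median log2 ratio of the list was -0.30. LKR (AT4G33150), the bifunctional lysine-ketoglutarate reductase and saccharopine dehydrogenase that starts lysine breakdown, had a signal of 1214 in 35S::AtC3H14 and 3437 in wild type, 2.83-fold lower. It and ALDH7B4 were both at least 2-fold lower, and LKR stayed past 2-fold in every scaling and floor tried. A link between these genes was not tested. In animals, the saccharopine dehydrogenase step yields the semialdehyde that antiquitin oxidises.

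In the same list, IVD, the isovaleryl-CoA dehydrogenase of leucine breakdown, had 575 in 35S::AtC3H14 and 978 in wild type, a ratio of 0.588, under 2-fold. IVD passed 2-fold (log2 -1.29) when scaled to the hybridization controls. MCCA and MCCB, the subunits of methylcrotonyl-CoA carboxylase, had ratios of 0.802 and 0.931. D2HGDH, a dehydrogenase of D-2-hydroxyglutarate, had a ratio of 0.823. The electron carriers that accept electrons from these dehydrogenases, ETFALPHA, ETFBETA and ETFQO, had ratios of 1.23, 1.74 and 0.989. AT2G26800 and AT4G20930 had ratios of 0.646 and 0.769, and AT2G26800 passed 2-fold (log2 -1.15) when scaled to the hybridization controls. AT5G09300, below the floor in 35S::AtC3H14, was at least 1.75-fold lower. Besides LKR, the other 9 genes of the list measured on both arrays lay under 2-fold in the deposited values, as did ALDH6B2.

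Of the 7 entries of the proline list, only 2 were measured. Both were at least 2-fold lower, as were 5.61% of all measured probe sets. DELTA-OAT (ornithine-delta-aminotransferase), which yields the semialdehyde that is in equilibrium with pyrroline-5-carboxylate, had 467 in 35S::AtC3H14 and 1024 in wild type, 2.19-fold lower, and a log2 ratio of -0.99 with a pseudocount of 100. AT5G38710 had 372 in 35S::AtC3H14 and 1429 in wild type, 3.84-fold lower. The aldehyde dehydrogenase of this pathway, ALDH12A1, was not analysed here.

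The other lists held no gene past 2-fold. Beside ALDH2C4, the phenylpropanoid genes HCT, a hydroxycinnamoyl transferase of lignin synthesis, and CCR2, a cinnamoyl-CoA reductase that makes the aldehydes, had ratios of 0.724 and 0.585. Scaled to the hybridization controls, CCR2 passed 2-fold, at a log2 ratio of -1.30. Beside the ALDH10 pair, SAMDC, the S-adenosylmethionine decarboxylase of polyamine synthesis, had 14466 in 35S::AtC3H14 and 14605 in wild type, and AT2G42490 had a ratio of 0.773. Beside ALDH11A3, the phosphorylating enzyme GAPC2 had 20798 in 35S::AtC3H14 and 19395 in wild type, a ratio of 1.07.

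In the acetaldehyde and ethanol list, PDC2, a pyruvate decarboxylase that forms acetaldehyde, had a ratio of 0.743, and ACS, the acetyl-CoA synthetase that activates acetate, had 1895 in 35S::AtC3H14 and 1221 in wild type, a ratio of 1.55. AER, an alkenal reductase that removes reactive carbonyls by another route than ALDH enzymes, had 124 in 35S::AtC3H14 and 216 in wild type, a ratio of 0.575 close to the floor. Scaled to the hybridization controls it passed 2-fold, at -1.32 in log2. No gene of the GABA list was analysed here.

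**Figure D3:**
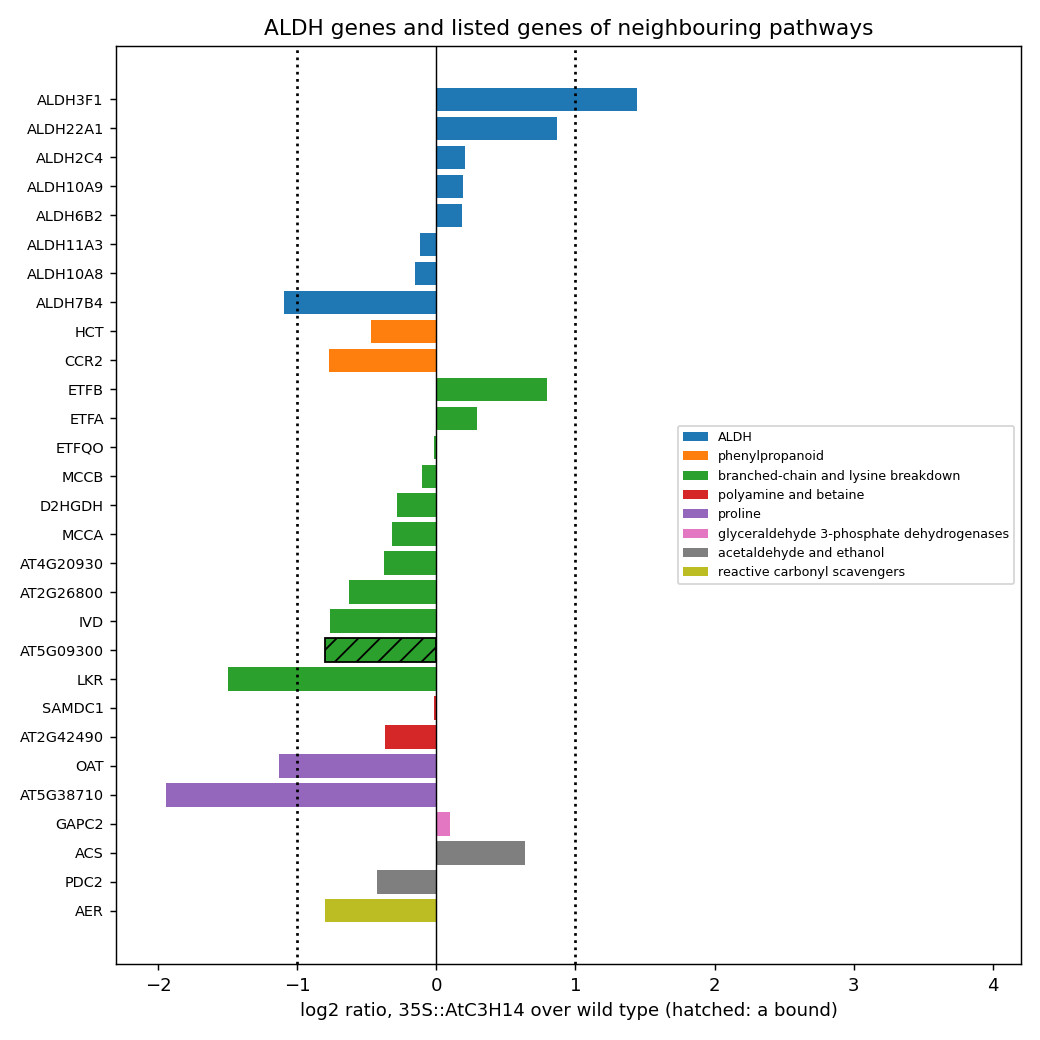
Bars give the log2 ratio, 35S::AtC3H14 over wild type, of the 8 ALDH members and of the 21 listed neighbouring genes, coloured by list, with dotted lines at 2-fold and a hatched bar for the 1 bound. ALDH3F1 is the 1 bar past 2-fold to the right, and ALDH7B4, LKR, OAT and AT5G38710 pass it to the left. OAT, ETFA, ETFB and SAMDC1 stand for DELTA-OAT, ETFALPHA, ETFBETA and SAMDC.

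**Figure D4:**
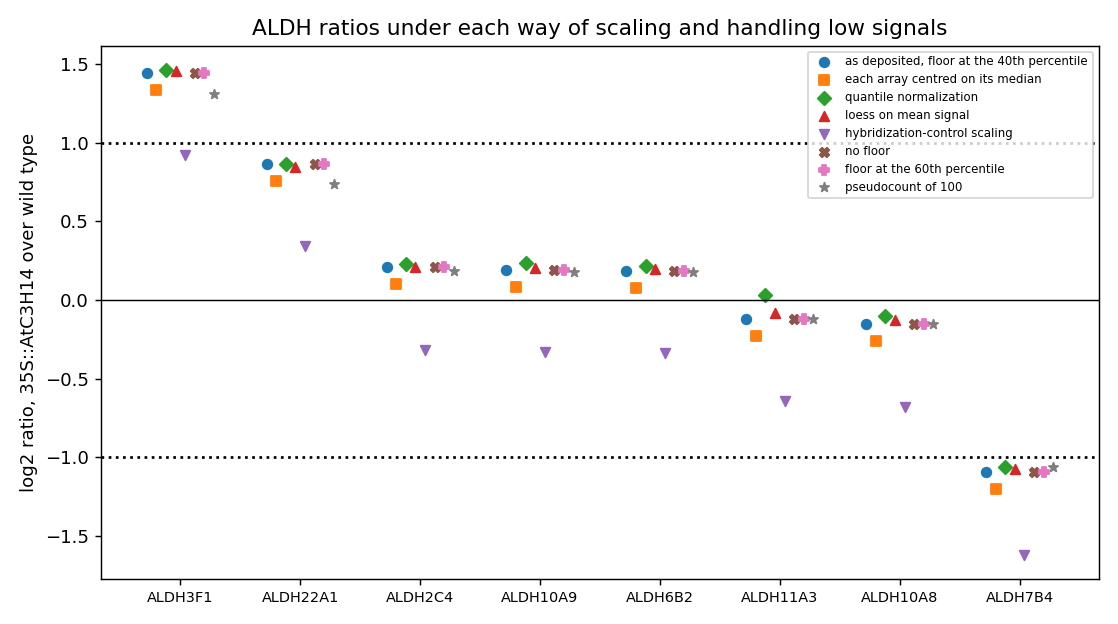
Points give the log2 ratio, 35S::AtC3H14 over wild type (vertical axis), of each ALDH member as deposited and under 7 other ways of scaling the arrays or handling low signals, with dotted lines at 2-fold. The hybridization-control scaling lies lowest for every member and brings ALDH3F1 to 0.92, and ALDH7B4 stays below -1 throughout.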

How the data were processed

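The deposited table holds 1 linear intensity per probe set and array, which the authors computed in MAS5 (a tool listed in the submitters' processing notes, without a version in the sources used here). Of 22810 probe sets, 64 controls were set apart. Per the labels, labelled cRNA came from 10 ug of Trizol-extracted RNA. Signals under the floor on 1 array gave a bound against the floor, and under it on both arrays (8277 probe sets) no ratio. Lists were described by counts and medians. All ALDH probe sets and all listed genes with a probe set were named. Members and lists were chosen with earlier results of these data known. Alternatives were median centring, quantile normalization, loess on mean signal (span 0.4), scaling to 18 spiked hybridization control probe sets, no floor, a floor at the 60th percentile, a pseudocount of 100, and sizes of 1.5-fold and 3-fold. Python 3.11.15, numpy 2.4.6, pandas 2.3.3 and statsmodels 0.14.6 were used, and the code was tested on simulated data. Protein sequences, planned as a description, were not analysed here. The number of arrays limits the precision.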

Additional observations from a re-analysis of the deposited data

Results flagged for a closer look

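One of the array's GAPDH control probe sets, the 3' one of the newer pair, read 11622 in 35S::AtC3H14 and 5438 in wild type, a log2 ratio of 1.096. It was singled out because its signal lay above the wild-type level by at least 2-fold in data that no comparison used. The log2 ratio was 0.62 or more for each of the 5 GAPDH controls, or 0.10 to 0.57 with the hybridization-control scaling, while the probe set of GAPC2 had 0.10, or -0.42 with that scaling. Which transcripts the control probe sets read was not tested.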

How the results depend on the processing

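The alternatives for the neighbouring pathway lists and the background of bright probe sets were chosen after seeing the data. There were 56 values of the 8 members under 7 alternatives. Of these, 48 moved by less than the SD of 0.35 between probe sets of a gene, and 8 moved further. Part of the 48 was fixed in advance. All member signals lay above 308.5, the floor at the 60th percentile, so neither change of floor could move a member. Median centring moves all members by the same amount. The 8 that moved further all came from the hybridization-control scaling, which by construction lowers each by 0.52 (18 of 18 control probe sets were higher on the 35S::AtC3H14 array). The log2 ratios were then 0.92 for ALDH3F1, 0.34 for ALDH22A1, -0.32 for ALDH2C4, -0.33 for ALDH10A9, -0.34 for ALDH6B2, -0.64 for ALDH11A3, -0.68 for ALDH10A8 and -1.62 for ALDH7B4, with a median of -0.33 and 0 members at least 2-fold higher. That scaling gave 207 probe sets higher and 2143 lower over the array, so that higher ones made up 8.81% of those past 2-fold, against 44.6% as deposited (579 and 720) and 34.0% with median centring. In the pathway lists it gave 7 lower genes of the 20 measured. Without that scaling, ALDH3F1 ranged from 1.31 to 1.46 and ALDH7B4 from -1.20 to -1.06. Over the array, no floor gave 3428 higher and 2409 lower of 22746 probe sets, and the floor at the 60th percentile 261 and 429 of 8211. At 1.5-fold, 1855 were higher and 1813 lower (14.5% and 14.1%), with 2 ALDH members higher. Of the 20 measured genes of the pathway lists, 2 were then higher and 7 lower. At 3-fold, 162 were higher and 182 lower (1.26% and 1.42%), with 0 ALDH members in either direction. Of the 20 pathway genes, 1 was lower by that size. No ALDH probe set had a name ending in _s_at or _x_at. No array could be left out, and no paired analysis was possible because each group had 1 array and no test was run.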

Other observations

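Other genes called dehydrogenase in the gene table were read after values had been seen. There were 31 such probe sets of 29 genes, 24 of them measured on both arrays, with 2 at least 2-fold higher, 1 (LKR) at least 2-fold lower and a median log2 ratio of 0.21. Over all measured probe sets, 4.51% were higher and 5.61% lower by that size. With the hybridization-control scaling 0 of the 24 were higher and 5 lower, against 207 and 2143 of 12778 probe sets over the array. With no floor 4 of 31 were higher and 1 lower, against 3428 and 2409 of 22746 over the array. The higher ones were FLDH, a farnesol dehydrogenase, at 696 in 35S::AtC3H14 and 270.0 in wild type (2.58-fold), and IDH-VI, a subunit of the mitochondrial isocitrate dehydrogenase, at 750.4 in 35S::AtC3H14 and 369 in wild type (2.03-fold). IDH-VI had a log2 ratio of 0.92 with median centring, 0.998 with quantile normalization, 0.86 with the pseudocount and 0.50 with the hybridization-control scaling, and FLDH 0.84 with the hybridization-control scaling, all under 2-fold.

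The measured genes of succinate dehydrogenase, and IDH-V of the isocitrate dehydrogenase of the tricarboxylic acid cycle, had signals higher in 35S::AtC3H14 but under 2-fold, as did NDB2, an alternative NAD(P)H dehydrogenase of the mitochondrial inner membrane. NDB1, of the same kind and the 1 bound among the 31, lay below the floor in wild type and was at least 1.96-fold higher, with a log2 ratio of 1.60 with no floor. SDH1-1 had 2480 in 35S::AtC3H14 and 1442 in wild type, and SDH2-2 had 1763 in 35S::AtC3H14 and 980.5 in wild type. IDH-V had 2232 in 35S::AtC3H14 and 1329.7 in wild type, and NDB2 had 553 in 35S::AtC3H14 and 304 in wild type. SDH2-1 had 2005 in 35S::AtC3H14 and 1269 in wild type by 1 probe set, and its other probe set lay below the floor on both arrays. With the hybridization-control scaling the log2 ratio was 0.26 for SDH1-1, 0.32 for SDH2-2, 0.23 for IDH-V, 0.34 for NDB2 and 0.14 for SDH2-1.

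NdhN, NdhS and NdhL, subunits of the plastid NAD(P)H dehydrogenase complex, had signals lower in 35S::AtC3H14 but under 2-fold, with log2 ratios of -0.84, -0.64 and -0.18. With the hybridization-control scaling NdhN had -1.37, NdhS -1.16 and ICDH -1.27, all past 2-fold. ICDH, an isocitrate dehydrogenase, had 384 in 35S::AtC3H14 and 646 in wild type, a log2 ratio of -0.75, and FDH, a formate dehydrogenase, 3990.4 in 35S::AtC3H14 and 5296 in wild type, a log2 ratio of -0.41. The probe sets of SDRB had -0.39 and -0.23. cICDH, another isocitrate dehydrogenase, had 8868 in 35S::AtC3H14 and 7616 in wild type, a log2 ratio of 0.22, or -0.30 with the hybridization-control scaling. GPDHp, GLDH, MDH, AT5G58330 and NDC1 also had higher signals in 35S::AtC3H14, with log2 ratios of 0.80, 0.52, 0.50, 0.47 and 0.21. With the hybridization-control scaling MDH, AT5G58330 and NDC1 fell to -0.02, -0.05 and -0.32. Each of these values comes from 1 array per genotype and was not tested.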
